A study of Mus musculus with 12 samples.

Results

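Cytosolic ribosomal proteins, the structural proteins of the ribosomes that translate nuclear messages, were examined in white gastrocnemius, the part of this calf muscle in which fast fibres prevail. The genes were chosen by symbol: Rpl or Rps followed by a digit, Rplp0, Rplp1, Rplp2 or Rpsa, without the S6 kinases, Rps19bp1 and pseudogene symbols. Of the 12393 genes with a probe set of their own on the array, 48 met this rule, and each is represented by whichever of its probe sets was brightest on average across the 12 arrays. That average is the measured value in the rule, and it takes no account of genotype. A further 30 symbols that meet the rule occur only on probe sets shared with other symbols and are not among the 48, so counts by subunit cover only part of the ribosome. Rpl3, Rpl5, Rpl36a, Rpl36al, Rps27a and Rplp1 have no probe set of their own and were not analysed here by name. The family was, however, taken up with results of this same genotype comparison known, so its counts and medians are a description and not independent evidence.

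The tested mice carried a transgene for R225Q, a mutant of the γ3 subunit that regulates AMPK, a kinase that senses cellular energy, and were set against wild-type littermates. All were C57BL/6 males of the F5 generation, aged 17 to 18 weeks, kept on a 12-h light cycle and fasted overnight, and the array settings text names the right leg. There were 6 transgenic mice (numbered 1 to 6) and 6 wild-type mice (7 to 12), with 1 MOE430A array of total RNA per mouse. The promoter that drives the transgene is not given in the sources used here. Prkag3, the gene encoding γ3, has no probe set named for it alone and was not analysed here, which leaves the genotype labels unchecked by their target. Of the fast fibre markers, 10 of 10 measured genes lay above the array median on every array, as did 9 of 11 slow fibre markers.

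A ribosome joins a small subunit, which reads the message, to a large subunit, which forms the peptide bond, and most of their proteins are made in equal numbers. In mammals the mRNAs of these proteins begin with a 5′ terminal oligopyrimidine (TOP) tract, a C followed by a run of pyrimidines, through which mTORC1 controls their translation. AMPK restrains mTORC1, and ribosome production is among the largest energy costs of a growing cell. An array measures the amount of mRNA and not its translation. In bulk muscle, fewer cells of a type and less RNA per cell cannot be told apart.

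The start sites of 8 members are shown because the TOP tract is the sequence feature that these genes are known to share. Each line gives 30 bases centred on the annotated start, from the GRCm38.p6 promoter table of RefSeq, with the tract in capitals where the search found it.
Rps18, chr17:33955651-33955680, minus strand: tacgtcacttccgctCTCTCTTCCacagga
Rpl13a, chr7:45128731-45128760, minus strand: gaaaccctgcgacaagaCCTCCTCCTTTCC
Rplp2, chr7:141447636-141447665, plus strand: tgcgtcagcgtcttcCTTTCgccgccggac
Rps6, chr4:86857353-86857382, minus strand: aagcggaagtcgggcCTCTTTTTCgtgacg
Rps3a1, chr3:86142654-86142683, minus strand: ttaaagccggaagggcgaaagagcaagggt
Rps28, chr17:33824548-33824577, minus strand: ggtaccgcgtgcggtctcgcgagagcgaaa
Rpsa, chr9:120127751-120127780, plus strand: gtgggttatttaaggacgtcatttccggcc
Rpl3l, chr17:24727811-24727840, plus strand: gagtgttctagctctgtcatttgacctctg
The first 4 have a C followed by at least 4 pyrimidines within 5 bases of the annotated start, and the last 4 do not. A start annotated a few bases away from the main one would hide a tract, so a missing match says only that these letters are not in the window.

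Of the 48 members, 42 matched an entry of the promoter table by gene ID. The tract was found in 20 of the 42 (47.6%), against 1968 of 9882 genes measured on the array (19.9%), using the first listed start of each gene. The median log2 fold change was -0.10 for the 20 members with a tract (19 negative) and -0.11 for the 22 without (20 negative). In the window from 250 bases before to 50 after the start, searched on both strands, the ETS factor core CCGGAAG occurred in 21 of 42 members and in 1485 of 9882 genes. The YY1 letters AANATGGCG, searched likewise, occurred in 5 members (11.9%) and in 4.31% of genes, and TATAAA, the TATA box, in 5 members (11.9%) and in 10.1% of genes. No overlap between these 3 motifs was removed.

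The genotype comparison asked whether transcripts of the cytosolic ribosome differ between transgenic and wild-type muscle after a fast. As a set the members had small negative fold changes: 44 of 48 were negative, with a median of -0.10 on the log2 scale, while 6274 of all 12393 genes were negative (50.6%) with a median of -0.0013. No single member passed the test (limma, Benjamini-Hochberg over 22626 probe sets, adjusted p under 0.05), where 0.0707% of all probe sets did (0.0265% lower and 0.0442% higher). The smallest adjusted p of a member was 0.115. At an unadjusted p under 0.05, 20 of 48 members were lower in transgenic muscle, against a background of 2.43% of probe sets, and 0 were higher, against 2.2%. The 48 genes vary together from mouse to mouse, as shown by array further on, so these counts are not 48 separate observations. Across the 48 members the 95% intervals of the log2 fold change reached from -0.41 to 0.24, and the median standard error was 0.065.

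**Figure D1:**
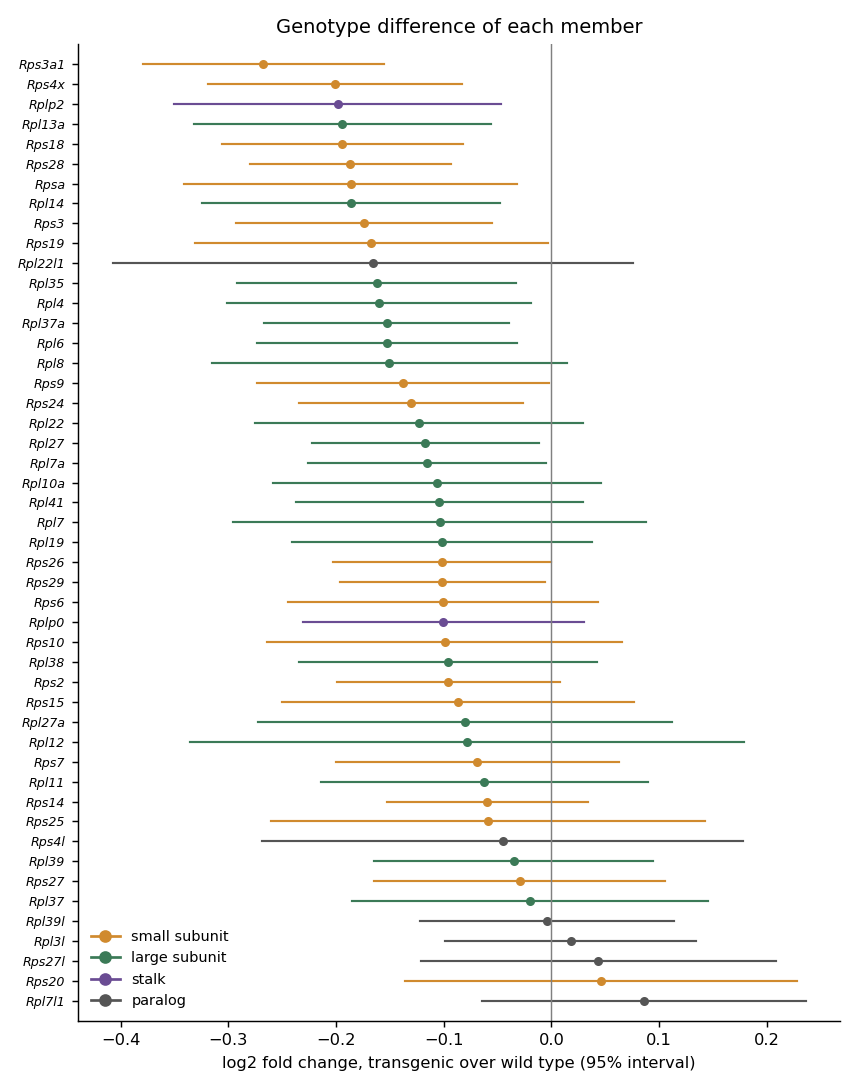
Log2 fold change of each of the 48 members, transgenic over wild type, with limma's 95% interval (6 arrays per genotype), coloured by role. Of the 48 points 44 lie left of 0, 20 intervals leave out 0, and no member passed after adjustment.

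Genes of the small subunit other than paralogs numbered 20, of which 19 had negative log2 fold changes with a median of -0.10. Rps3a1, a protein of the platform of the small subunit, had the lowest value of all members. Its log2 intensity was 11.14, 11.24 and 11.32 (lowest, median and highest) in transgenic muscle, against 11.43, 11.49 and 11.62 in wild-type muscle. The genotypes did not overlap. The log2 fold change was -0.27 ± 0.05 (SE), or 0.831-fold, with a limma adjusted p of 0.115, and it lay between -0.28 and -0.24 whichever array was left out.

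Rps28, which lies by the exit of the mRNA channel, was named after its values were seen. It read 11.91, 11.96 and 12.04 (lowest, median and highest log2 intensity) in transgenic muscle, against 12.13, 12.15 and 12.20 in wild-type muscle. Again every transgenic array was below every wild-type array, with a log2 fold change of -0.19 ± 0.04 (limma adjusted p = 0.287). Rps3, which lines the entry of the mRNA channel and was also named after its values were seen, read 11.25, 11.30 and 11.35 in transgenic muscle, against 11.37, 11.45 and 11.66 in wild-type muscle, and its log2 fold change was -0.17 ± 0.06 (limma adjusted p = 0.648). Rpsa, known also as the laminin receptor precursor, read 10.39, 10.56 and 10.60 in transgenic muscle, against 10.60, 10.63 and 10.995 in wild-type muscle. Its genotypes barely separated, with the highest transgenic array at 10.600 and the lowest wild-type array at 10.602, and the log2 fold change was -0.19 ± 0.07 (limma adjusted p = 0.845). Rps3a1, Rps28, Rps3 and Rpsa were the 4 of 48 members without overlap in the lower direction, against 0.261% of all probe sets, and 0 members were without overlap in the higher direction, against 0.243%.

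**Figure D2:**
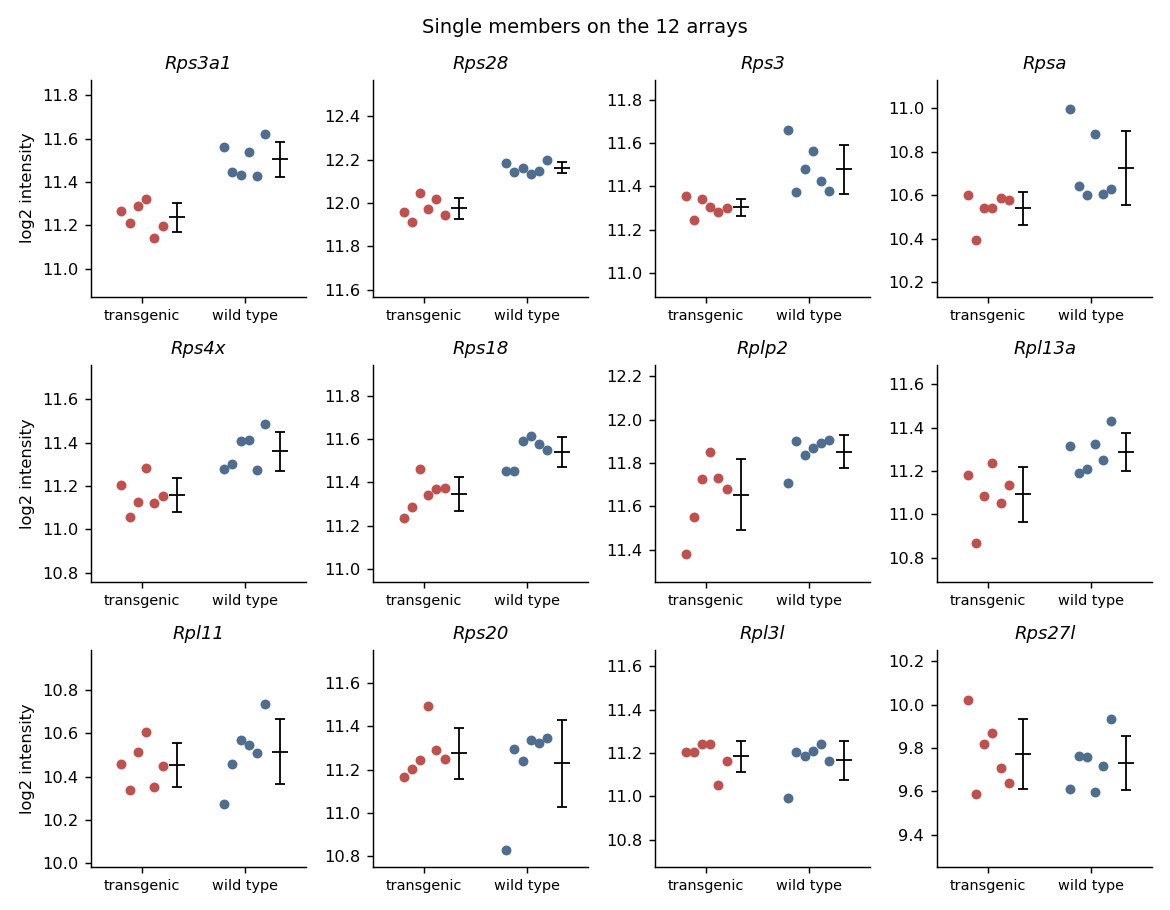
Log2 intensity of 12 members on the 12 arrays, 6 transgenic on the left and 6 wild-type on the right of each panel, with mean and SD beside them; every panel spans 1 log2 unit. Rps3a1, Rps28, Rps3 and Rpsa show no overlap between genotypes, whereas Rpl11, Rps20, Rpl3l and Rps27l overlap widely.

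Rps4x, the X-linked protein of the small subunit body, read 11.06, 11.14 and 11.28 in transgenic muscle, against 11.27, 11.35 and 11.49 in wild-type muscle, so that 5 of 6 transgenic arrays lay below all wild-type arrays. Its log2 fold change was -0.20 ± 0.06 (limma adjusted p = 0.468). Rps18, a protein of the head of the small subunit, read 11.23, 11.35 and 11.46 in transgenic muscle, against 11.45, 11.56 and 11.61 in wild-type muscle, with a log2 fold change of -0.19 ± 0.05 (limma adjusted p = 0.467). The 6 probe sets of Rps18 spread from -0.19 to 0.08, so this gene's value depends on which of them is read.

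Rps19, whose loss causes Diamond-Blackfan anaemia in humans, had a log2 fold change of -0.17 ± 0.08, with 4 of 6 transgenic arrays below the wild-type mean. Rps6, the substrate of S6 kinase downstream of mTORC1, was at -0.10 ± 0.07 on a probe set of low signal (6.81 log2 units over all arrays), and Rps27 was at -0.029 ± 0.064. Rps20 was the only member of this group with a positive value, 0.046 ± 0.086. It read 11.16, 11.25 and 11.50 in transgenic muscle, against 10.83, 11.31 and 11.35 in wild-type muscle. The wild-type low came from mouse 7, and without that array the log2 fold change of Rps20 was -0.034.

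In the large subunit, 20 of 20 genes other than paralogs and stalk proteins had negative log2 fold changes, with a median of -0.11 and a lowest value of -0.19. Rpl13a, a protein that also takes part in silencing inflammatory messages once released from the ribosome, read 10.87, 11.11 and 11.24 in transgenic muscle, against 11.19, 11.28 and 11.43 in wild-type muscle. Of the 6 transgenic arrays 5 were below all wild-type arrays, with a log2 fold change of -0.19 ± 0.06 (limma adjusted p = 0.693). However, its 4 probe sets spread from -0.19 to 0.0023. Rpl14, named after its values were seen, had -0.19 ± 0.07 on a dim probe set (5.01 log2 units over all arrays).

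Rpl11, which binds MDM2 when ribosome assembly fails, was at -0.062 ± 0.071. It read 10.34, 10.45 and 10.61 in transgenic muscle, against 10.28, 10.53 and 10.73 in wild-type muscle, and the genotypes overlapped throughout. Rpl7 was at -0.10 ± 0.09, Rpl22, which binds RNA and is not needed for translation as such, at -0.12 ± 0.07, and Rpl39, a protein of the exit tunnel, at -0.035 ± 0.061. Rpl41, the shortest of the ribosomal proteins, was at -0.10 ± 0.06, and its 4 probe sets spread from -0.18 to 0.05.

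The stalk of the large subunit recruits elongation factors and is built from Rplp0 with copies of Rplp1 and Rplp2. Rplp2 read 11.38, 11.71 and 11.85 in transgenic muscle, against 11.71, 11.88 and 11.91 in wild-type muscle. The groups overlapped in part, with a log2 fold change of -0.20 ± 0.07 (limma adjusted p = 0.775). Rplp0, a transcript often used as a reference in quantitative PCR, read 11.63, 11.77 and 11.89 in transgenic muscle, against 11.70, 11.89 and 12.00 in wild-type muscle. Its log2 fold change was -0.10 ± 0.06 with a 95% interval from -0.23 to 0.03.

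Paralogs, near copies of ribosomal proteins that replace or resemble them in some tissues, were 6 of the members, and 3 of 6 were negative with a median log2 fold change of 0.0068. Rpl3l, which takes the place of Rpl3 in heart and skeletal muscle ribosomes, read 11.05, 11.20 and 11.24 in transgenic muscle, against 10.99, 11.19 and 11.24 in wild-type muscle. Its log2 fold change was 0.018 ± 0.055 with a 95% interval from -0.10 to 0.13, and it was -0.017 without wild-type mouse 7, the lowest of the 12 arrays. Rpl22l1, whose mRNA Rpl22 is known to repress in mice, was at -0.17 ± 0.11 beside -0.12 for Rpl22 itself. It read 9.48, 9.83 and 10.12 in transgenic muscle, against 9.76, 9.96 and 10.29 in wild-type muscle.

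Rps27l, a p53-inducible copy of Rps27, was at 0.043 ± 0.078, and Rpl7l1, a relative of Rpl7, at 0.086 ± 0.071. The other probe set of Rpl7l1 was at -0.16, so its direction depends on the probe set. Rpl39l, known for its expression in testis, was at -0.0041 ± 0.056 on a dim probe set (4.46 log2 units over all arrays), and Rps4l, a copy of Rps4x, was at -0.045 ± 0.105. Whether the paralogs differ from the other members was not tested.

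By array, each member was set against its own mean over the 12 arrays. The median of these deviations over the 48 members was -0.111, -0.063 and 0.013 (lowest, median and highest array) in transgenic muscle, against -0.046, 0.067 and 0.126 in wild-type muscle, in log2 units. Over all 12393 genes the same measure stayed between -0.035 and 0.019 in transgenic and between -0.029 and 0.026 in wild-type arrays. A list of related genes can move more than all genes do. For the 74 mitochondrial ribosomal protein genes, taken up further on, the measure was -0.054 to 0.101 in transgenic and -0.055 to -0.016 in wild-type arrays. Transgenic mice 2, 5 and 6 each had 41 of 48 members below their own mean, while wild-type mouse 10 had 7 and wild-type mouse 12 had 9. The overlap came from wild-type mouse 7 (-0.046), which lay below transgenic mice 3 (-0.010) and 4 (0.013).

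**Figure D3:**
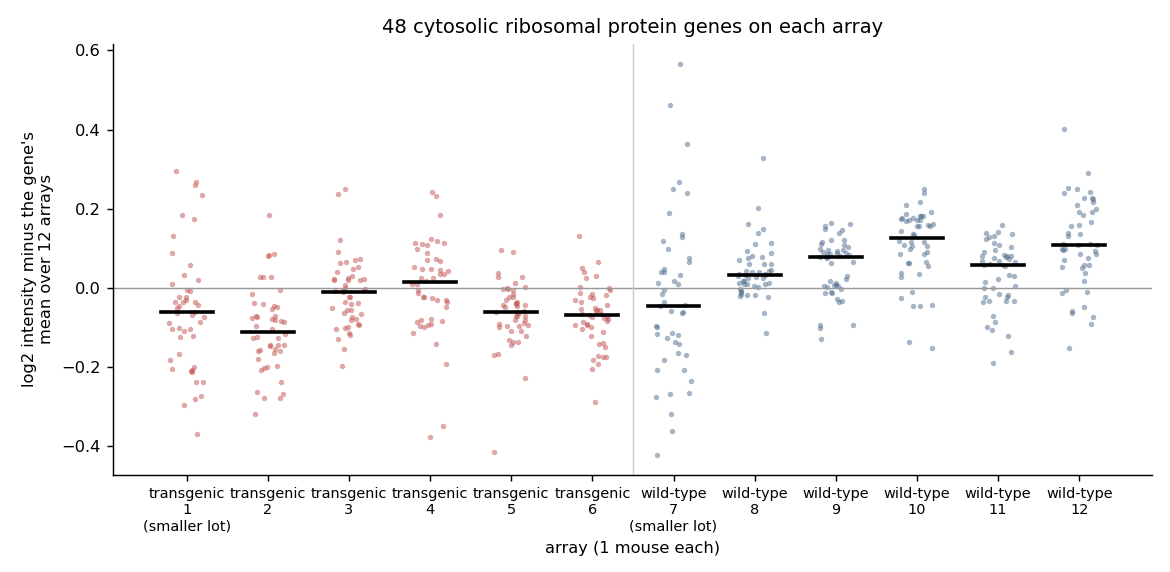
Log2 intensity of the 48 members on each array, minus each gene's mean over the 12 arrays; points are genes and black bars are medians. The medians run from -0.111 to 0.013 on the 6 transgenic arrays and from -0.046 to 0.126 on the 6 wild-type arrays, and the 2 arrays of the smaller chip lot are marked.

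Transgenic mouse 1 and wild-type mouse 7 were run on a smaller chip lot. The log2 difference between the 3′ and 5′ probe sets for Gapdh, a measure of RNA integrity, was 0.185 and 0.184 there. On the other 10 arrays it was -0.094 to -0.0017. For actin the same difference was -0.108 in transgenic mouse 1 and 0.033 in wild-type mouse 7, against -0.221 to -0.112 on the other 10 arrays. By actin, then, transgenic mouse 1 lay close to the other arrays. Without the smaller chip lot the array medians of the members were -0.111 to 0.013 in transgenic muscle and 0.031 to 0.126 in wild-type muscle, with no overlap. The median log2 fold change of the members was then -0.13 with 46 of 48 negative, beside 0.0067 over all genes. By limma 0 of 48 members passed (adjusted p under 0.05; background 0.0884%), and 27 of 48 were lower at an unadjusted p under 0.05, against 3.81% of all probe sets, while 0 were higher, against 2.6%.

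The arrays were hybridized on 2 days with 3 arrays of each genotype on each. On day 1 the members had a median log2 fold change of -0.10 with 37 of 48 negative, and on day 2 -0.13 with 45 of 48 negative, while the medians of all genes were -0.0061 and 0.0063. At an unadjusted p under 0.05, 4 of 48 members were lower on day 1 alone, against 1.6% of all probe sets, and 11 of 48 on day 2 alone, against 2.64%. Both days gave a negative value for 36 members, and for 24.3% of all genes. In a limma fit of the interaction of genotype and day, no member passed after adjustment, the smallest adjusted p being 0.999. In that fit 0 members had an unadjusted p under 0.05. The share of all probe sets in the interaction fit is not given here, so this count has no background beside it. With 3 arrays of each genotype per day, it does not show that the days agree.

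**Figure D4:**
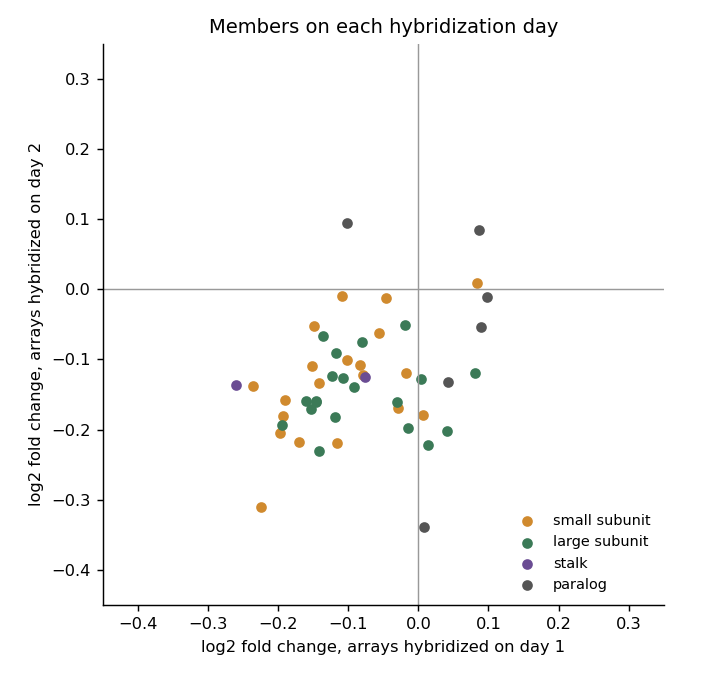
Log2 fold change, transgenic over wild type, of the 48 members on the 3 and 3 arrays of day 1 (horizontal) and of day 2 (vertical), coloured by role. In the lower left quadrant lie the 36 members negative on both days, and 2 members, in the upper right, are positive on both.

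Signal strength and probe set design differed among members. Of the 48, 38 had a mean above 9 log2 units, and these had a median log2 fold change of -0.12 (35 negative). The 10 dimmer members had -0.052 (9 negative). Among all 1500 genes above 9 log2 units 50.3% were negative, with a median of -0.00091. Members read on probe sets with the _a_at suffix were negative in 17 of 17 cases (median -0.15), those on _x_at sets, which can bind related transcripts, in 11 of 13 (median -0.10), and those on plain _at sets in 15 of 17 (median -0.08), and the 1 on an _s_at set was negative. When only plain _at sets were read, 24 genes had one, 19 of them negative with a median of -0.0401. Many ribosomal protein genes have processed pseudogenes of nearly the same sequence, so the share of signal from such copies is unknown.

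Of 23 members with several probe sets, 14 were negative on all of them, 1 was positive on all (Rps27l), and 8 had both signs. Rpl22 had its 2 probe sets at -0.12 and -0.31. A further 102 probe sets are annotated to several symbols including a ribosomal protein gene, so no gene is named from them. Of these 96 had negative log2 fold changes with a median of -0.12, ranging from -0.31 to 0.13; by limma 0 passed. At an unadjusted p under 0.05, 40 of the 102 were lower, against 2.43% of all probe sets, and 0 were higher. In 5 of them every transgenic array was below every wild-type array, against 0.261%, and in 0 every transgenic array was above.

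Related gene lists were set beside the members. Among mRNAs outside the ribosome that carry a TOP tract, 15 of 18 were negative with a median log2 fold change of -0.09. Npm1, the nucleolar chaperone nucleophosmin, had a mean log2 intensity of 9.18 in transgenic muscle (SD 0.12) and 9.42 in wild-type muscle (SD 0.09), and its log2 fold change was -0.24 ± 0.06 (limma adjusted p = 0.419). Eef1d, a subunit of the exchange factor of elongation factor eEF1A, was at -0.18 ± 0.06 (limma adjusted p = 0.592). Of the 49 translation initiation and elongation factors, some of them also in that list, 28 were negative with a median of -0.02, and Eif4b, which stimulates the helicase eIF4A, was at -0.18 ± 0.06 (limma adjusted p = 0.686). None of these genes passed.

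Proteins of the ribosome named otherwise gave 3 of 4 negative values with a median of -0.04; Fau, which encodes a small subunit protein fused to a ubiquitin-like one, was at -0.10 ± 0.06 and Btf3, of the nascent chain complex, at -0.05 ± 0.06. Ribosome biogenesis and RNA polymerase I genes were balanced, 46 of 82 negative with a median of -0.01; beside Npm1 the smallest p belonged to Ftsj3, a pre-rRNA processing factor, at -0.16 ± 0.07. The list of mTORC1, S6 kinase and translational control had 14 of 29 negative with a median of 0.01. Rragc, a Rag GTPase that brings mTORC1 to the lysosome, was at 0.20 ± 0.07, and Lamtor3, of the complex that anchors the Rag GTPases, at 0.14 ± 0.06. Of the p53 response list 5 of 13 were negative with a median of 0.03, with Phlda3, a p53-induced repressor of Akt, at 0.22 ± 0.06 and Btg2, also an immediate early gene, at 0.82 ± 0.25. By limma no member of these 4 lists passed, with smallest adjusted p-values of 0.999, 0.419, 0.775 and 0.467.

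Mitochondrial ribosomal proteins, which build the separate ribosome of mitochondria, had the other sign. Of 74 genes 63 were positive, with a median log2 fold change of 0.07. At an unadjusted p under 0.05 in limma, 10 were higher, against 2.2% of all probe sets, and 0 lower, against 2.43%. None passed the adjusted threshold in limma (smallest adjusted p 0.686). Mrps12 was at 0.18 ± 0.06 and Mrpl47 at 0.17 ± 0.06. The difference between the lists was not tested.

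**Figure D5:**
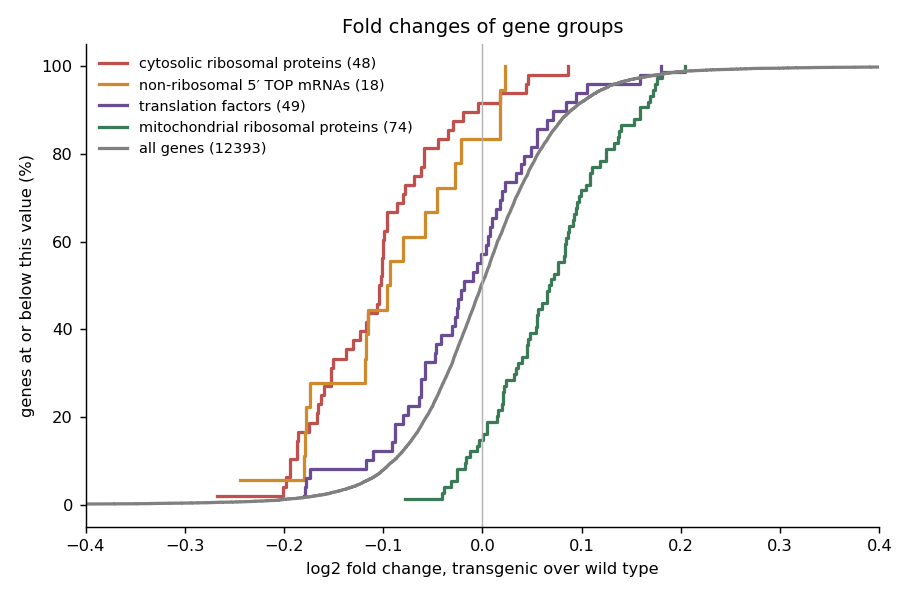
Cumulative share of genes by log2 fold change, transgenic over wild type, for the members, for 3 related lists and for all genes, with the number of genes in brackets. The curve of the 48 cytosolic ribosomal protein genes (median -0.10) lies left of that of all genes (median -0.0013), and that of the 74 mitochondrial ribosomal protein genes (median 0.07) lies to the right.

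Markers of fibre types and other cells were also set side by side, and the array means of the genotypes overlapped in every list. Slow fibre markers were negative in 10 of 11 genes with a median log2 fold change of -0.46, beside -0.10 for the 48 members. The mean of the list was 8.32 to 9.26 log2 units on transgenic and 8.34 to 9.77 on wild-type arrays. Adipocyte markers were negative in 5 of 5 genes, median -0.52 (7.50 to 8.20 on transgenic arrays and 7.95 to 8.79 on wild-type arrays). Fibroblast markers were negative in 9 of 10, median -0.11 (8.35 to 8.64 on transgenic and 8.37 to 8.71 on wild-type arrays). Endothelial markers were positive in 11 of 12 genes, median 0.14 (7.84 to 7.99 on transgenic arrays and 7.69 to 7.88 on wild-type arrays). In limma, 1 of 11 slow fibre, 3 of 5 adipocyte and 1 of 10 fibroblast markers were lower at an unadjusted p under 0.05. The share of all probe sets lower at that threshold was 2.43%. Of the endothelial markers 6 of 12 were higher, against 2.2% of all probe sets.

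Satellite cell markers were negative in 7 of 10 genes, median -0.015 (6.17 to 6.29 on transgenic arrays and 6.25 to 6.39 on wild-type arrays). Myod1, a myogenic transcription factor named after its values were seen, was at -0.38 ± 0.08 (limma adjusted p = 0.132). It had the lowest value of the list and was the 1 marker of 10 lower at an unadjusted p under 0.05 in limma, against 2.43% of all probe sets. Fast fibre markers were negative in 5 of 10 genes (13.36 to 13.46 on transgenic and 13.30 to 13.44 on wild-type arrays) and macrophage and leukocyte markers in 5 of 13 (7.002 to 7.23 on transgenic and 6.95 to 7.24 on wild-type arrays). Schwann cell markers were negative in 2 of 4 genes (7.67 to 8.13 on transgenic and 7.71 to 8.02 on wild-type arrays). Blood markers were negative in 1 of 3 (6.33 to 7.11 on transgenic and 6.34 to 6.62 on wild-type arrays). Medians of the log2 fold change were -0.0011 for fast fibre, 0.015 for macrophage and leukocyte, 0.023 for Schwann cell and 0.087 for blood markers. No marker of these lists passed the test in limma, and the deposited values hold no call of presence, so none can be said to be absent. The part of fibre types and other cells in the ribosomal values was not tested.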

How the data were processed

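The deposited values are linear intensities, 1 per probe set and array, made with RMA per the submitters' processing notes. The RMA version and probe definitions are not given in the sources used here. The deposited array settings text, other than expression data, gave chip lot and hybridization times, from which 2 days and 4 runs were taken. The log2 of each deposited intensity was taken, with neither pseudocount nor filter. After 64 control probe sets were set aside, 22626 were tested, of which 20380 carry 1 gene symbol in the platform annotation, 691 several and 1555 are not listed. All 48 members matched RefSeq by Entrez identifier. Rps15a-ps6, a pseudogene symbol, was left out.

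Genotypes came from the titles. The test was limma 3.58.1 (R 4.3.3; two-sided, lmFit with eBayes, Benjamini-Hochberg over all tested probe sets, threshold 0.05). The test was checked on simulated data in which probe sets varied independently of each other. At a true log2 change of 0.3, 40 of 67 changed probe sets were recovered, and 9 of 175 calls were false. Smaller changes, such as those of the members, were not simulated. The members, lists and tests were chosen with earlier results of these data known. Genes named were the 5 highest and 5 lowest members, members chosen by role, and the 2 with the smallest p of each pathway list, with Rps28, Rpl14, Rps3 and Myod1 added after their values were seen. The number of arrays limits the precision. Nothing says that litters were kept apart, so p-values measure the spread between these mice. Alternatives were other scalings, filters, variance models, probe set choices, batch blocks and leaving out arrays. Protein sequences were not used here.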

Additional observations from a re-analysis of the deposited data

Results flagged for a closer look

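Of 48 tests of single arrays (24 named members in 2 genotypes), 4 found an array far from the other 5 of its genotype. For a single test chance gives about 1 in 20. The members vary together from mouse to mouse and some were named by their values, so the count cannot be set against that rate. On the array of wild-type mouse 7, of the smaller chip lot, Rps20 read 10.83 log2 units against 11.24 to 11.35 on the other wild-type arrays, Rpl3l read 10.99 against 11.16 to 11.24, and Rplp2 read 11.71 against 11.83 to 11.91. In transgenic mouse 2 Rpsa read 10.39 log2 units against 10.54 to 10.60 on the other transgenic arrays. The part of chip lot and RNA integrity in the values of mouse 7 was not tested.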

How the results depend on the processing

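The median log2 fold change of the members was negative under all 27 alternatives, between -0.14 and -0.0401, and 0 members passed under any of them, with smallest adjusted p-values from 0.0547 (mean over each gene's probe sets) upwards. The value of -0.0401 came from plain _at probe sets (24 genes, 19 negative). Of these 24 genes 3 were lower at an unadjusted p under 0.05, against 20 of 48 members in the main choice and 2.43% of all probe sets. At that unadjusted threshold 11 members were lower with the dimmest probe set of each gene (2.43% of all probe sets). On day 1 alone 4 were lower (1.6%) and on day 2 alone 11 (2.64%). With the several-symbol sets added, 140 of 150 probe sets were negative and 60 were lower at that threshold (2.43% of all probe sets). Without 1 array the members' median lay between -0.14 and -0.09, and 42 to 44 were negative. In those fits 13 to 26 were lower at that threshold (13 without transgenic replicate 2, without wild-type replicate 9 or without wild-type replicate 10). The share of all probe sets at that threshold is not given here for those fits, so these counts have no background beside them. Over all probe sets, 10 were higher and 6 lower. With day as a block 11 were lower, with run as a block 4 were higher and 2 lower, on day 1 alone 1 higher and 0 lower, on day 2 alone 1 higher and 1 lower, and without 1 array 4 to 12 higher and 1 to 6 lower. Of the 24 named members, none of which passed, these changed sign; the other 24 are not listed. With the dimmest probe set Rpl13a was at 0.0023, Rpl41 at 0.054, Rpl7l1 at -0.16, Rps20 at -0.024 and Rps6 at 0.0056; with plain _at sets Rpl41 was at 0.054, Rps18 at 0.015 and Rps20 at -0.034; with the mean over probe sets Rpl7l1 was at -0.039 and Rps20 at -0.013. Without the smaller chip lot Rpl39l was at 0.0131, Rpl3l at -0.021, Rps20 at -0.012 and Rps27l at -0.030; with run as a block Rpl39l was at 0.0127 and Rpl3l at -0.0105. On day 1 alone Rpl11 was at 0.0032, Rpl22l1 at 0.0074 and Rpl7 at 0.014, and on day 2 alone Rpl39l at 0.094, Rpl3l at -0.053 and Rps27l at -0.0115. Without 1 array Rpl39l ranged from -0.031 to 0.0195, Rpl3l from -0.017 to 0.044, Rps20 from -0.034 to 0.0699, Rps27 from -0.067 to 0.0093 and Rps27l from -0.0057 to 0.084. The cause of these changes was not tested. No paired analysis was possible because the replicate numbers of the genotypes are not shared. Signal over background is unknown here, so compression at high or low intensity cannot be judged. The single days, the limit of 9 log2 units and the several-symbol sets were chosen after seeing the data.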
